A study of Mus musculus with 12 samples.

Results

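The 10 Serpina genes described here were Serpina1a, Serpina1b, Serpina1c, Serpina1d, Serpina1e, Serpina3k, Serpina3m, Serpina3n, Serpina6 and Serpina10, which encode protease inhibitors and a hormone carrier secreted by the liver. They were taken by gene symbol, and were 10 of 16821 genes listed in liver RNA sequencing data of 12 mice. The mice were adult male C57BL/6J animals, bought at 8 weeks of age, and no transgene or deletion is named for either group. The 6 mice of the Exe group were trained for 6 weeks by treadmill running of moderate intensity, on 5 days of each week and for 60 min each day. The Con group was 6 sedentary mice that were housed alongside and never trained. All livers were perfused with saline through the heart and were collected within 24 h of the last run, so effects of the training period and of the last bout cannot be told apart. Values are FPKM, fragment numbers scaled to the length of the transcript and to the size of the library, so levels can be compared between genes.

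Serpins are inhibitors that act as bait. A flexible stretch near the end of the protein, the reactive centre loop, is offered to a protease. Once the loop is cut, the serpin changes shape and traps the enzyme, so the letters of the loop set which proteases are met. The Serpina1 genes encode alpha-1 antitrypsins, whose best known target is neutrophil elastase. Humans have a single such gene, whereas mice carry a set of near copies. The Serpina3 genes are mouse relatives of human antichymotrypsin, and Serpina3n is known as an acute-phase gene, one that the liver raises during inflammation. Serpina10 encodes the inhibitor that acts with protein Z on clotting factor Xa. Serpina6 encodes corticosteroid-binding globulin, which kept the serpin fold but carries glucocorticoids in blood and inhibits no protease.

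The aligned coding sequences differed at 86 of 1242 columns in the Serpina1 family and at 245 of 1251 in the Serpina3 family. Most of these columns lie outside the loop, but they are denser in it than in most of the coding sequence. The segments below were read from GENCODE M21 transcripts (GRCm38 build), 5′ to 3′ along the coding strand, starting at the hinge of the loop. They are shown because differing columns are denser here than in most of the coding sequence. Capitals mark the columns that differ within the family, which were 19 of 99 in the Serpina1 family.
Serpina1a: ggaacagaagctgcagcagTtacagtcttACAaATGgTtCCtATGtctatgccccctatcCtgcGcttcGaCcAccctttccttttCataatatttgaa
Serpina1b: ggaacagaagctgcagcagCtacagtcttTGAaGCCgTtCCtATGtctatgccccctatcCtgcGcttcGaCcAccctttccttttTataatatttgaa
Serpina1c: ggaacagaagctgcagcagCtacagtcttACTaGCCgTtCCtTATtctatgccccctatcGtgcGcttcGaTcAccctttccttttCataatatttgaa
Serpina1d: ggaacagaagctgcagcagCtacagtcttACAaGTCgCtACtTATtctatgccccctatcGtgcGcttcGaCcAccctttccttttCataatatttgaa
Serpina1e: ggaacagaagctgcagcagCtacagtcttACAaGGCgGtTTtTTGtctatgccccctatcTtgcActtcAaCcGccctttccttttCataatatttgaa
The median 99-base window of the aligned Serpina1 coding sequences held 6 differing columns and the highest held 21, and 94.8% of windows held fewer than the loop. Serpina1c and Serpina1d differed at 5 of the 99 bases, the fewest of any pair. Serpina1e differed from Serpina1a, Serpina1b and Serpina1c at 12 bases each and from Serpina1d at 10.

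The same segment was read in the Serpina3 genes, where 46 of 105 aligned columns differed. Serpina3k lacks 6 of the bases that the other two carry, and capitals again mark the columns that differ.
Serpina3k: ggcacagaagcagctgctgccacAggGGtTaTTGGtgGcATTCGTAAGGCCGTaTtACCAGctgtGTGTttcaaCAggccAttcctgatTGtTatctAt
Serpina3m: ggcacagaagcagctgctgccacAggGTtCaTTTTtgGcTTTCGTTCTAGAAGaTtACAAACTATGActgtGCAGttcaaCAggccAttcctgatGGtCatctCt
Serpina3n: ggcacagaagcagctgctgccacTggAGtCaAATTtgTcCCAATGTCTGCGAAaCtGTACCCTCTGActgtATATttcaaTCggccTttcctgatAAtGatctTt
In a 99-base window of the loop 40 columns differed, against a median of 17 and a highest of 52 over all windows of the alignment. Over the whole coding sequence, loop included, identity was 91.0% between Serpina3k and Serpina3m, 85.2% between Serpina3m and Serpina3n and 82.6% between Serpina3k and Serpina3n. Among Serpina1b to Serpina1e it lay between 96.3% and 96.7%, and between Serpina1a and these 4 genes from 91.5% to 93.3%. Gaps count as differences here, and the Serpina1a coding sequence that was read is longer (1311 bases against 1242). The lower values therefore do not show that Serpina1a differs more in the bases it shares with the others.

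This likeness bears on the measurements, since reads of 150 bases that fall in identical stretches cannot be placed by sequence alone. Of all 150-base windows of the coding sequence, 53.0% in Serpina1c, 50.2% in Serpina1a, 24.2% in Serpina1b, 23.0% in Serpina1d and 9.9% in Serpina1e were identical to a window of another Serpina gene. The share was 0.5% in Serpina3k and Serpina3m. Serpina3n, Serpina6 and Serpina10 shared none. How reads shared between paralogs were assigned is not given in the sources used here, so the levels of the Serpina1 genes, their sum and their shares are uncertain to a degree that was not tested.

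The livers had similar summed FPKM and relative depth and matched their label. Summed FPKM ranged from 735200 to 820107 over the 12 mice, and the relative depth, estimated from 22 genes, from 0.978 to 1.015. FPKM are already scaled to the size of the library, so their sum does not measure the amount of data. Hepatocyte markers had a mean of at least 1 FPKM in 10 of 10 genes and summed to between 58076 and 84975. Of the neutrophil markers 2 of 10 reached that mean, and the sum ranged from 9.19 to 54.66. Macrophage markers summed to between 187 and 457. Pancreatic acinar and red blood cell markers, at 8.56 to 34.9 and 235 to 1290, were both highest in Exe 5. Levels in a whole liver cannot tell fewer cells of a type from less RNA per cell.

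The Serpina genes were among the most abundant transcripts of the liver. Together the 10 genes took 4.52% to 5.73% of summed FPKM in a mouse, and the 5 Serpina1 genes alone took 3.55% to 4.57%. By mean FPKM over the 12 mice, 6 of the 10 were among the 40 highest genes of the 16821 listed. Serpina1e was at place 12, Serpina1c 13, Serpina3k 18, Serpina1b 23, Serpina1a 35 and Serpina1d 36. The other 4 genes stood far lower, at place 352 for Serpina3n, 489 for Serpina10, 612 for Serpina3m and 715 for Serpina6.

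With the genes ordered by mean FPKM, the ranges of neighbours lay apart at a few steps. Agreement between mice does not guard against reads assigned to the wrong paralog in all of them. The lowest mouse of Serpina3k (7058 FPKM) was above the highest of Serpina1b (6077). The lowest of Serpina1b (4964) was above the highest of Serpina1a (3716), and the lowest of Serpina1d (2705) was above the highest of Serpina3n (507). All other neighbours overlapped in range. Within single mice, Serpina1c was still above Serpina3k, Serpina1a above Serpina1d and Serpina3n above Serpina10 in 12 of 12 mice. Serpina10 was above Serpina3m, and Serpina3m above Serpina6, in 10 of 12. Serpina1e was above Serpina1c in only 8 of 12, so the order of the top pair was not settled by these mice.

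**Figure D1:**
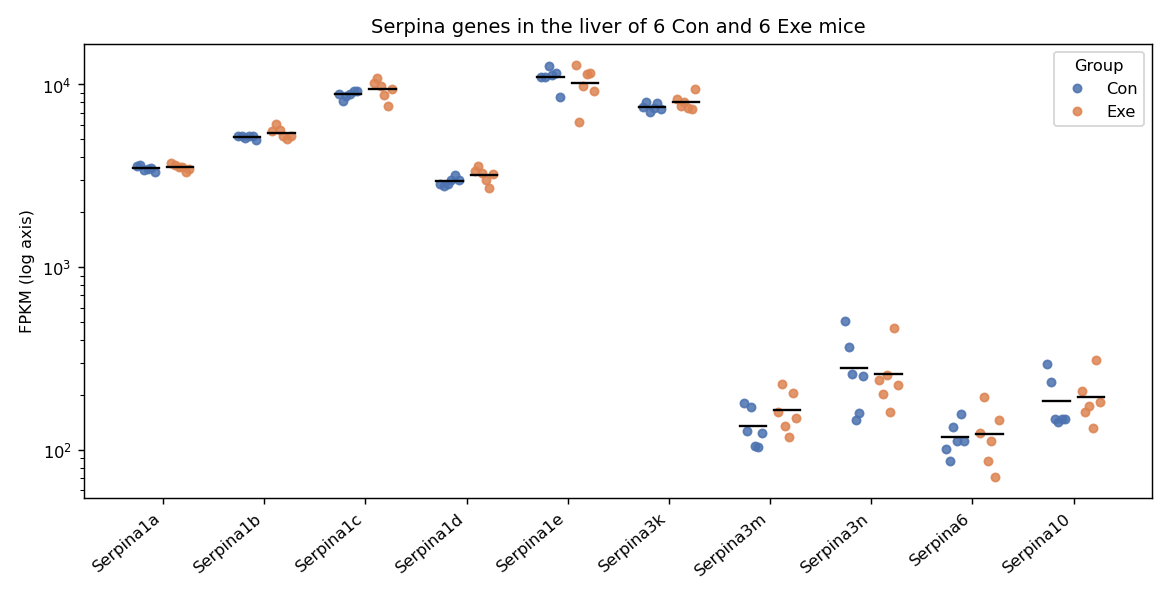
FPKM of the 10 Serpina genes (log axis) in the liver of each mouse, with Con in blue, Exe in orange and a black line at each group mean. Con and Exe points overlap for every gene, and Serpina3m, Serpina3n, Serpina6 and Serpina10 scatter more widely than the 6 abundant genes.

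Compared with Con group, none of the 10 genes passed the test in Exe group. In limma's moderated test on log2(FPKM + 1), adjusted by Benjamini-Hochberg over all 10241 genes tested, 0 of 10 passed an adjusted p of 0.05, with 0% of all genes passing. At an unadjusted p of 0.05 it was again 0 of 10, against 6.21% of all genes (636), of which 437 were higher and 199 lower in Exe. Groups did not overlap for 0.254% of all genes and for 0 of the 10. The log2 fold change, Exe minus Con, was above 0 for 8 of 10 genes and for 57.5% of all genes. Its median was 0.077 over the 10 genes and 0.016 over all genes. All fold changes are on the log2(FPKM + 1) scale.

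**Figure D2:**
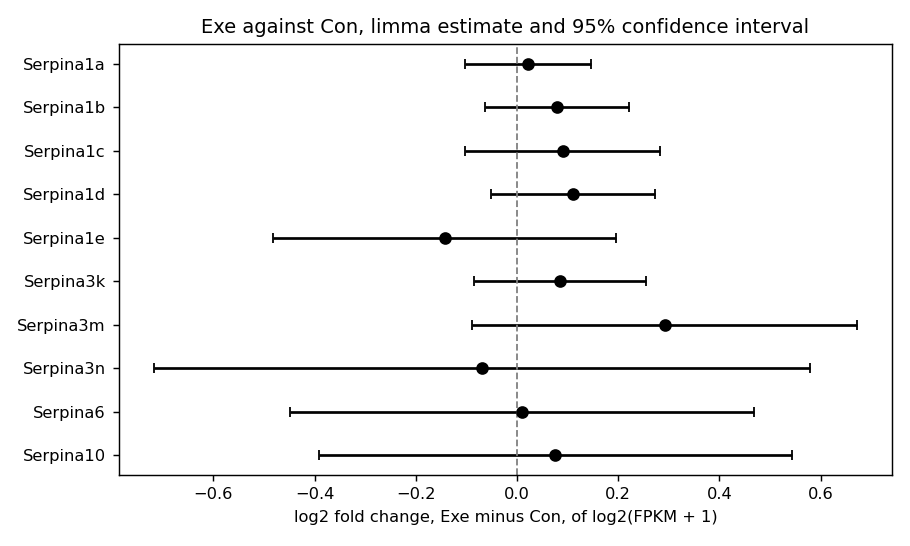
Log2 fold change of each Serpina gene, Exe minus Con, as estimated by limma from 6 mice a group, with bars for the 95% confidence interval and a dashed line at 0. Every interval spans 0, and it is narrowest for Serpina1a (-0.10 to 0.15) and widest for Serpina3n (-0.72 to 0.58).

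The alpha-1 antitrypsins were steady between mice, with 1 exception. Serpina1a ranged from 3333 to 3645 FPKM in Con (median 3467) and from 3330 to 3716 in Exe (median 3537). The groups covered nearly the same range. Its log2 fold change was 0.022 ± 0.058 (SE, n = 6 and 6), with a 95% confidence interval from -0.10 to 0.15, and an adjusted p of 0.972. Only 0.478% of the genes tested had a smaller SD within groups on the log2 scale.

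Serpina1b lay between 4964 and 5220 FPKM in Con (median 5208) and between 5010 and 6077 in Exe (median 5398). Of the 6 Exe mice, 5 exceeded the highest Con mouse and Exe 5 lay among the Con values. The means were 5156 ± 101 against 5457 ± 379 (mean ± SD). This log2 fold change of 0.079 ± 0.066 (SE), with an interval from -0.063 to 0.22, did not pass either test (limma adjusted p = 0.929; exact permutation test, two-sided, p = 0.0779). Under quantile normalization it was 0.27, with an unadjusted limma p of 0.0428 and an adjusted p of 0.817. The fold changes of the other abundant genes also depended on that scaling, at 0.13 for Serpina1a, 0.18 for Serpina1c, 0.21 for Serpina1d and 0.18 for Serpina3k, and none of these had an unadjusted p under 0.05.

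Serpina1c and Serpina1d had the same shape as Serpina1b. Serpina1c was at 8166 to 9241 FPKM in Con (median 8873) and 7623 to 10791 in Exe (median 9658). Serpina1d was at 2784 to 3201 in Con (median 2923) and 2705 to 3579 in Exe (median 3256). For each gene 4 of the 6 Exe mice exceeded the highest Con mouse, while the lowest of all 12 was Exe 5 and the highest Exe 2. The log2 fold changes were 0.090 ± 0.090 for Serpina1c and 0.11 ± 0.075 for Serpina1d (SE), with exact permutation p of 0.271 and 0.121.

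Serpina1e was the exception. It lay between 8571 and 12682 FPKM in Con (median 11176) and between 6259 and 12841 in Exe (median 10601). The highest and the lowest of the 12 mice were both Exe, Exe 1 and Exe 2, a 2.05-fold span against 1.12-fold for Serpina1a. Exe 2 had the lowest Serpina1e together with the highest Serpina1b, Serpina1c and Serpina1d. Compared with Con group, its log2 fold change was -0.14 ± 0.16 (SE), with an interval from -0.48 to 0.20 and an exact permutation p of 0.457.

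Because a share within a mouse does not depend on how that mouse was scaled, each paralog was also expressed as percent of the summed Serpina1 FPKM. That sum ranged from 29100 to 35632. Serpina1e made up 35.0% ± 3.03 (SD, n = 6) in Con and 31.9% ± 6.35 in Exe. In Con its share was lowest in Con 6 (29.5%) and highest in Con 3 (38.8%). In Exe it was 20.6% in Exe 2 and between 30.1% and 38.1% in the other mice. The difference of -3.13 points did not pass the test (exact permutation test, two-sided, p = 0.357). It rested largely on Exe 2, without which it was -0.88 points and the log2 fold change of Serpina1e was -0.010.

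The other shares moved less. Serpina1c made up 28.1% ± 1.94 in Con and 29.7% ± 3.55 in Exe, with its highest share, 35.6%, also in Exe 2. Serpina1b was at 16.4% ± 0.539 and 17.2% ± 1.53, Serpina1a at 11.1% ± 0.535 and 11.1% ± 0.510, and Serpina1d at 9.40% ± 0.570 and 10.1% ± 1.03. The exact permutation p-values of these 4 shares ran from 0.212 to 0.868. Serpina1e was 0.580 times Serpina1c in Exe 2, against 0.928 to 1.51 times in the other 11 mice. Serpina1e is the paralog with the fewest shared windows, so the smallest part of its coding sequence is open to shared reads.

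**Figure D3:**
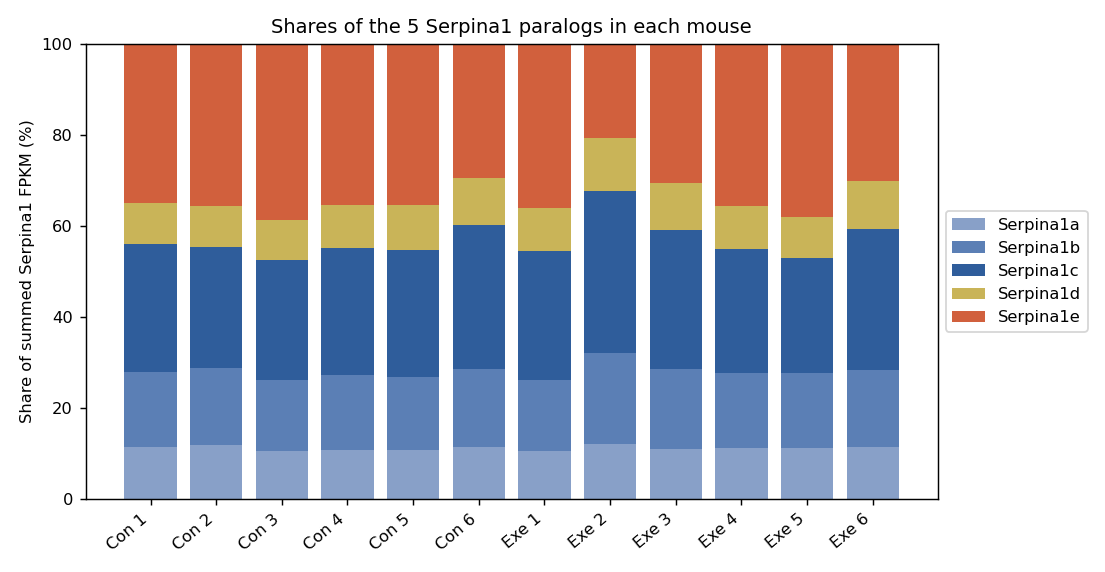
Stacked bars of the 5 Serpina1 paralogs as percent of their summed FPKM in each mouse. The Serpina1e segment (red) fills 20.6% in Exe 2 and at least 29.5% in every other mouse, and Con and Exe bars are otherwise alike.

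Of the Serpina3 genes, Serpina3k was in the range of the Serpina1 genes and also had a small fold change, but its order of mice differed. It lay between 7058 and 8039 FPKM in Con (median 7479) and between 7377 and 9439 in Exe (median 7834). Exe 6 was the highest mouse and the groups overlapped. It had a log2 fold change of 0.086 ± 0.079 (SE), with an exact permutation p of 0.197.

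Serpina3m had the largest estimate of the 10 genes and did not pass a test. Con values were 179, 126, 171, 105, 104 and 124 FPKM, and Exe values 161, 228, 136, 117, 205 and 149. In Exe, 2 mice (Exe 2 and Exe 5) exceeded the highest Con mouse, and 5 of 6 were above the Con median. Serpina3m had a log2 fold change of 0.29 ± 0.18 (SE), with an interval from -0.088 to 0.67, a limma adjusted p of 0.873 and an exact permutation p of 0.171. The unadjusted limma p was 0.0482 without Con 1 and 0.0452 without Exe 4, and the adjusted p stayed at 0.691 or more when any single mouse was left out.

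Serpina3n differed more between mice than any other of the 10, with 98.7% of tested genes less variable within groups. The Con mice had 507, 364, 259, 146, 160 and 254 FPKM. The Exe mice had 242, 202, 256, 160, 466 and 227 FPKM. Con 1 and Exe 5 were highest, Con 4, Con 5 and Exe 4 lowest, and the groups covered nearly the same range. Its log2 fold change was -0.069 ± 0.30 (SE), with an interval from -0.72 to 0.58 that leaves room for a change of either sign. The exact permutation p was 0.838, and the estimate turned positive without Con 1 (0.13), Con 2 (0.031) or Exe 4 (0.051). The Serpina3 genes did not keep a fixed ratio, since Serpina3n was 1.97% of Serpina3k in Con 4 and 6.74% in Con 1.

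Serpina10, the partner of protein Z, resembled Serpina3n. The Con mice had 295, 235, 148, 142, 148 and 148 FPKM. The Exe mice had 210, 160, 173, 132, 309 and 183 FPKM. Exe 5 and Con 1 were again the highest, and 4 of the 6 Con mice lay within 142 to 148. A log2 fold change of 0.075 ± 0.22 (SE, exact permutation p = 0.758) was estimated, which was -0.068 without Exe 5. Proz, which encodes protein Z itself, was steady at 131 to 157 FPKM over the 12 mice, with a log2 fold change of 0.076 ± 0.053 (SE, limma adjusted p = 0.901). Its enzyme target F10, factor X, was at 191 ± 6.42 in Con and 198 ± 7.73 in Exe (SD).

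Serpina6, the glucocorticoid carrier, had a different order of mice. The Con mice had 101, 87.1, 134, 112, 158 and 112 FPKM. The Exe mice had 124, 195, 86.6, 111, 70.7 and 145 FPKM. The lowest mouse was Exe 5 and the highest Exe 2, so the Exe group spanned the whole range. For this gene the log2 fold change was 0.0091 ± 0.21 (SE), with an interval from -0.45 to 0.47 and an exact permutation p of 0.963. It took either sign depending on the scaling and on which mouse was left out. Serpina7, the thyroxine-binding globulin and the other hormone carrier with a serpin fold, was at 12.6 ± 3.99 in Con and 14.6 ± 7.85 in Exe (SD), with an adjusted p of 0.976.

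Serpina3n varied between mice together with the acute-phase level. This level was taken as the mean log2(FPKM + 1) of 15 genes of the liver's inflammatory response, with no serpin among them (Saa1, Saa2, Saa3, Orm1, Orm2, Hp, Lcn2, Apcs, Hpx, Itih3, Itih4, Fga, Fgb, Fgg and Cp). It ran from 8.26 in Con 4 to 10.9 in Exe 5 and Con 1, and both groups covered that range. Lcn2, lipocalin-2, alone went from 5.93 to 719 FPKM. Between the groups 0 of the 15 genes had an unadjusted limma p under 0.05 (6.21% of all genes). A fold change above 0 was found for 1 (57.5% of all genes), and the median log2 fold change was -0.22.

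Serpina3n followed this level across the 12 mice with a Pearson r of 0.942 and a Spearman rho of 0.972 (permutation p = 1e-05 for both, the smallest that 100000 resamples can give). Adjusted over all 10226 genes tested this way, p was 0.0146. Without the 2 mice farthest from the median level, Con 1 and Exe 5, r was 0.900. It held within each group, with r of 0.949 in Con (exact permutation p = 0.00139, the smallest that 6 mice allow) and 0.967 in Exe (exact permutation p = 0.00278). Of all genes, 0.215% passed the adjusted threshold, 18 with positive and 4 with negative r, and 0.0391% had an r at least as large in size. Serpina3n was the only one of the 10 to pass.

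Of the other 9 genes, 3 reached an unadjusted p under 0.05, which made 4 of 10 against 17.2% of all genes. For Serpina10 r was positive (r = 0.744, permutation p = 0.00625, adjusted p = 0.128; rho = 0.797, permutation p = 0.00323). Its r was 0.451 without Con 1 and Exe 5, so the relation rested largely on those 2 mice. Within groups r was 0.702 in Con and 0.892 in Exe (exact permutation p = 0.0681 and 0.0278).

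The other pair had negative coefficients. For Serpina1d r was -0.699 (permutation p = 0.013, adjusted p = 0.173; rho = -0.657), and -0.544 without the 2 farthest mice. It was -0.822 in Con and -0.693 in Exe (exact permutation p = 0.0417 and 0.121). For Serpina6 r was -0.658 (permutation p = 0.02, adjusted p = 0.2; rho = -0.559), and -0.510 without those mice. Within groups it was -0.566 and -0.800 (exact permutation p = 0.237 and 0.0569). None of these 3 relations passed the adjustment. The coefficients of the other 6 genes lay between -0.566 and 0.417, with adjusted p of at least 0.304. Under quantile normalization Serpina1a and Serpina1b also had unadjusted permutation p under 0.05, with r of -0.759 and -0.831 (adjusted p = 0.122 and 0.0899), and Serpina1d had -0.879 (adjusted p = 0.0501). Quantile values are set by rank, and Saa2 of the acute-phase list (51.7 to 11371 FPKM) crosses the levels of these genes. Those r are therefore not independent of the acute-phase level. Under median-of-ratios scaling r was -0.071 for Serpina1a, -0.33 for Serpina1b and -0.56 for Serpina1d (permutation p = 0.827, 0.297 and 0.0624). For Serpina3m r was 0.765 without Exe 2 (permutation p = 0.00797, adjusted p = 0.199).

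**Figure D4:**
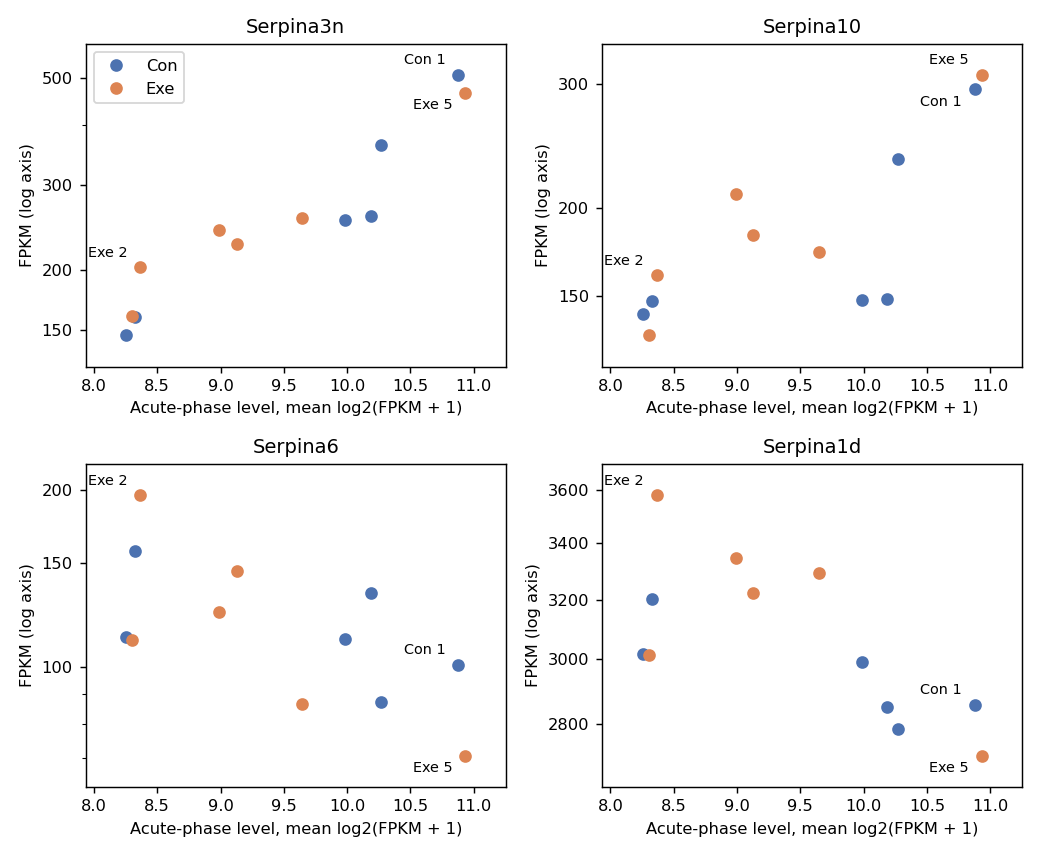
FPKM of Serpina3n, Serpina10, Serpina6 and Serpina1d (log axes) against the acute-phase level, the mean log2(FPKM + 1) of 15 genes, in 6 Con (blue) and 6 Exe (orange) mice. Serpina3n climbs along the whole range (r = 0.942), Serpina10 mainly through Con 1 and Exe 5, and Serpina6 and Serpina1d slope down with more scatter.

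Markers of other cells were set beside this relation. The neutrophil sum was 34.5 FPKM in Con 1 and 50.2 in Exe 5, the mice with most Serpina3n, but highest in Exe 3 (54.7), where Serpina3n was 256. Of the 10 neutrophil markers, Elane, Mpo, Ly6g, Mmp8, Camp, Ngp, Ltf and Retnlg had means below 1 FPKM in both groups. The neutrophil sum was therefore mostly S100a8 and S100a9. The macrophage sum was 375 in Con 1, 411 in Exe 5 and highest in Con 2 (457). The hepatocyte sum was 58076 in Con 1, the lowest of the 12, and 74699 in Exe 5. The part of these cells in the relation was not tested.

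The sequence before the start of Serpina3n was examined for letters that acute-phase and hormone-responsive factors are known to bind. The 250 bases before the annotated start are printed from the RefSeq table of GRCm38.p6, chr12:104406458-104406707, plus strand, because Serpina3n was the gene that followed the acute-phase level. Capitals mark motif matches.
Serpina3n: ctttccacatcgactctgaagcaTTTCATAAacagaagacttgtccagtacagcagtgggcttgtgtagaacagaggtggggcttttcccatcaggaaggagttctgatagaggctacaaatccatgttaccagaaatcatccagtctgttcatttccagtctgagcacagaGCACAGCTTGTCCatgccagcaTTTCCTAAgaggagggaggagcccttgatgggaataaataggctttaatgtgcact
The motif TTNNGNAA, bound by C/EBP factors, matched at 2 places whose first bases lie 227 and 56 bases before the start. At least 1 match was present in 36.85% of all 32851 promoters of this length. The glucocorticoid receptor motif (its consensus of paired half-sites with a 3-base spacer) matched at 1 place, 78 bases before the start, and was present in 0.39% of promoters. Both strands were searched, and the matches do not overlap. The STAT motif TTCNNNGAA, present in 7.02%, and the palindromic HNF1 motif, present in 0.01%, had no match in this window. Promoters were found for 6 of the 10 genes. In the same window the C/EBP motif matched 1 time in Serpina1b, Serpina1d and Serpina1e and not in Serpina1a or Serpina1c, and the other 3 motifs matched in none of these 5. The exact HNF1 palindrome matched only 3 of all 32851 promoters. A miss was therefore likely in any promoter and does not show that a looser HNF1 site is absent. A match is a run of letters and says nothing on whether a factor was bound in these livers.

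The 10 genes did not move as a block. After each group's mean was subtracted, Pearson r was computed for all 45 pairs over the 12 mice, as a description with no test. Serpina1c and Serpina1d were the closest pair (r = 0.956, and 0.905 to 0.983 when any single mouse was left out). Both have stretches identical to other Serpina1 genes, at 53.0% and 23.0% of windows. Serpina1c shared most with Serpina1a and Serpina1d with Serpina1b, and windows shared by Serpina1c and Serpina1d alone were not counted. Serpina1a and Serpina1c, which shared most with each other, had an r of 0.443 (-0.0043 to 0.667). The part of shared reads in these coefficients was not tested. Serpina3n and Serpina10 were the next closest pair (0.915, and 0.874 to 0.938), and share no 150-base window. Serpina6 went with Serpina1d (0.786, and 0.655 to 0.901) and Serpina1c (0.731, and 0.552 to 0.850). With Serpina1b its r was 0.557, but 0.182 without Exe 2. Serpina3n and Serpina6 had an r of -0.604. Serpina1e had negative r with Serpina1b (-0.501), Serpina1c (-0.516) and Serpina1d (-0.490), and these rested on Exe 2, without which they were 0.225, -0.203 and -0.142.

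**Figure D5:**
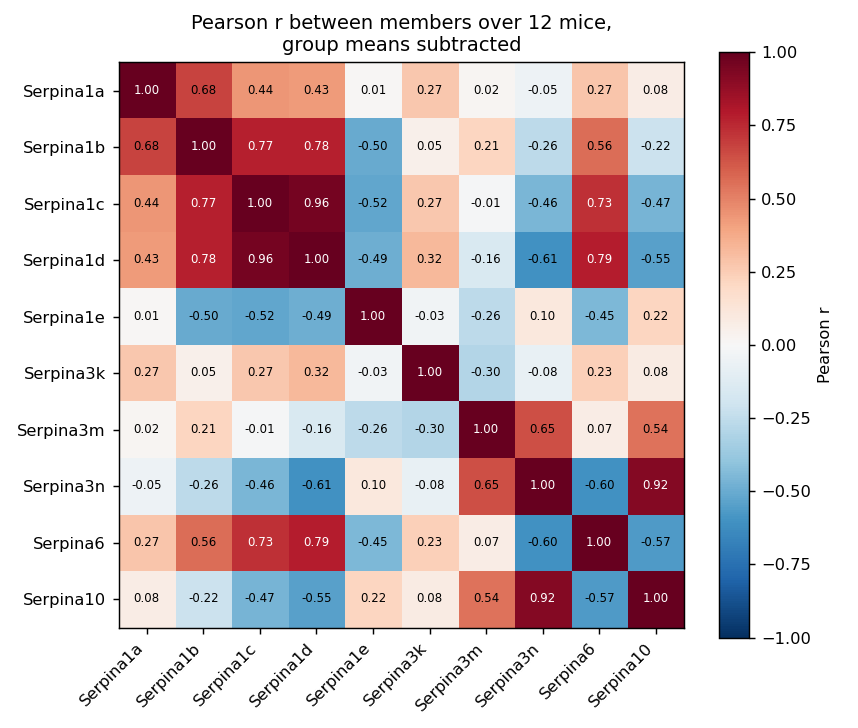
Pearson r of log2(FPKM + 1) between the 10 Serpina genes over 12 mice after subtracting group means, from -1 (blue) to 1 (red). Serpina1b, Serpina1c, Serpina1d and Serpina6 form a block of positive values, Serpina3n and Serpina10 stand at 0.92, and Serpina1e is negative with Serpina1b, Serpina1c and Serpina1d. The value of Serpina1b with Serpina6 (0.56) was 0.18 without Exe 2.

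Among the genes outside the 10, those whose levels were most like each member were listed by the same r, with no test. For Serpina3n they were Lcn2 (0.980), Hp, the haemoglobin-binding haptoglobin (0.969), and Fgl1, a fibrinogen-like protein made by the liver (0.967). For Serpina10 they were Lrg1, a leucine-rich plasma glycoprotein (0.963), Rnase4, a secreted ribonuclease (0.954), and Saa4, the constitutive serum amyloid A (0.945). For Serpina6 they were Enpep, aminopeptidase A (0.969), Sord, sorbitol dehydrogenase (0.949), and Il1rap, the accessory chain of the interleukin-1 receptor (0.928).

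Serpina1c and Serpina1d shared neighbours. Serpina1c was closest to Pdk2, a kinase that restrains pyruvate dehydrogenase (0.972), Mtarc2, an amidoxime-reducing enzyme (0.928), and Cers2, a ceramide synthase (0.921). Serpina1d was closest to Hpn, the hepatocyte surface protease hepsin (0.937), and again to Pdk2 (0.932) and Mtarc2 (0.932). The nearest genes of the others were Cyp2d12 for Serpina1a (0.906), Rbl2 for Serpina1b (0.884), Pdcd10 for Serpina1e (0.825), Sbno2 for Serpina3k (0.880) and Zmpste24 for Serpina3m (0.911). Each of these is the highest of the coefficients with all other tested genes, and the highest of so many from 12 mice is large for any gene.

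The genes that work with the serpins were read from lists. Export and quality control in the endoplasmic reticulum, where serpins fold and misfolded alpha-1 antitrypsin is removed, was the list with most genes past an unadjusted p of 0.05, 5 of 13, all with fold changes above 0, against 4.27% of all genes in that direction. They were Edem1, which hands misfolded glycoproteins to degradation, Uggt1, the folding sensor, the lectin chaperones Canx and Calr, and Mcfd2, a part of the cargo receptor for export. Edem1 went from 25.9 ± 0.937 to 29.7 ± 1.63 FPKM (SD), a log2 fold change of 0.19 ± 0.048 (SE, limma adjusted p = 0.657). Calr went from 501 ± 81.3 to 598 ± 48.3, with 0.27 ± 0.099. Uggt1, Mcfd2 and Canx had log2 fold changes of 0.14, 0.14 and 0.11. The list had 11 of 13 fold changes above 0, against 57.5% of all genes, and a median of 0.14. None passed an adjusted p of 0.05, so no gene of the list is called.

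The hormone carriers and the glucocorticoid genes were set beside Serpina6. Of 8 carriers tested 7 had a fold change above 0 (57.5% of all genes), with a median of 0.076. An unadjusted p under 0.05 was found for 1 of them (6.21% of all genes). This was Alb, albumin, which also carries steroids and thyroid hormone, at 34840 ± 4856 in Con and 43908 ± 4087 in Exe (SD), a log2 fold change of 0.34 ± 0.12 (SE, limma adjusted p = 0.793). Of 13 genes of glucocorticoid action 3 had a fold change above 0, against the same 57.5% of all genes, with a median of -0.32. Hsd11b1, which regenerates active glucocorticoid, had a log2 fold change of 0.20 ± 0.089 (SE). Tat, tyrosine aminotransferase, and Dusp1, a phosphatase, had -0.55 ± 0.23 and -0.93 ± 0.31 (SE). These 3 of 13 had unadjusted p under 0.05, against 6.21% of all genes, and adjusted p of at least 0.793. The receptor itself, Nr3c1, was at 9.04 ± 0.755 and 9.55 ± 1.35 FPKM (SD), with an adjusted p of 0.947.

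The factors and receptors that are known to act on liver serpin genes gave 1 of 13 at an unadjusted p of 0.05, against 6.21% of all genes. This was Il6st, the signalling chain of the interleukin-6 receptor, at 13.9 ± 0.968 in Con and 16.6 ± 1.26 in Exe (SD), a log2 fold change of 0.24 ± 0.062 (SE, limma adjusted p = 0.657). Stat3, the factor that relays this signal, was at 28.0 ± 3.59 and 31.8 ± 4.19, with an adjusted p of 0.848. The list's median log2 fold change was 0.065.

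Other serpins gave no gene at an unadjusted p of 0.05, against 6.21% of all genes. Of 13 further genes of the same clade that were listed, 7 were tested, with 3 fold changes above 0 (57.5% of all genes) and a median of -0.030. Serpina11, a clade A gene of the liver, was at 81.6 ± 8.72 and 85.7 ± 4.96 FPKM (SD). Of the plasma serpins of other clades 6 were tested, with 4 above 0 and a median of 0.014. Serpinc1, antithrombin, was at 1465 ± 51.0 and 1494 ± 83.4, with an adjusted p of 0.966.

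The protease targets and partners gave 0 of 6 at an unadjusted p of 0.05 between the groups (6.21% of all genes), with a median of 0.061. Among them Prtn3, proteinase 3, a neutrophil protease that alpha-1 antitrypsin inhibits, followed the acute-phase level as Serpina3n did (r = 0.921, permutation p = 1e-05, adjusted p = 0.0146). It ranged from 0.74 to 26.4 FPKM. The other neutrophil proteases of the list were near the limit of the files, with Elane at most 0.96 FPKM and Ctsg at most 0.08.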

How the data were processed

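Total RNA of 12 livers was sequenced as paired reads of 150 bases on a DNBseq platform. The authors filtered reads, used HISAT for alignment to GRCm39, and deposited a table of FPKM (2 decimals) for each mouse; the submitters' processing notes also name Bowtie2 and mm10. The tool behind the FPKM, any scaling between mice and the assignment of reads shared between paralogs are not given in the sources used here. Depth in reads is unknown, so no counting error is given; relative depth came from 22 genes whose FPKM are whole multiples of a step, with acceptance limits widened after few genes passed.

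Genes that reached an FPKM of 1 in 6 or more of the 12 mice were tested in R 4.3.3 with limma 3.58.1 (lmFit, eBayes with trend) on log2(FPKM + 1), adjusted by Benjamini-Hochberg. The authors used DESeq, which needs counts. Single genes and shares had exact two-sided permutation tests over 924 splits, whose smallest p is 0.00216. Correlations had 100000 permutations, or all 720 pairings within a group; they were adjusted over all genes in place of the 10 genes planned. Python 3.11.15, numpy 2.4.6, pandas 2.3.3, scipy 1.17.1, matplotlib 3.10.9 and Biopython 1.88 were used. Transcripts were aligned with MAFFT 7.526. Scripts were tested on simulated data. The genes and lists were chosen with earlier results of these data known. Named besides the 10 genes were the 3 genes most like each, list genes at an unadjusted p under 0.05 and Serpina7, Serpina11, Serpinc1, Proz, Nr3c1 and Lcn2; other names were chosen after their values were seen. Alternatives covered scaling, pseudocount, filter, variance moderation, the acute-phase list, a replicate block and each mouse left out. The mice are separate animals.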

Additional observations from a re-analysis of the deposited data

Results flagged for a closer look

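Of 30 sets of 6 mice (FPKM of 10 genes and shares of 5 paralogs in each group), 2 had a mouse far from the others by Dixon's ratio at the 95% level; chance gives about 1 in 20. For Serpina3n in Exe the ratio was 0.687, with Exe 5 at 466 FPKM against at most 256 in the other Exe mice. Exe 5 also had the highest acute-phase level (10.9) and the highest acinar and red blood cell sums. For the share of Serpina1c in Con the ratio was 0.688, with Con 6 at 31.8% against at most 28.1% in the other Con mice. Con 6 had the lowest Serpina1e share of its group, 29.5%. What sets these mice apart was not tested.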

How the results depend on the processing

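The alternatives covered scaling, pseudocount, filter, variance moderation, acute-phase list, replicate block and left-out mice. Of 562 values, 526 counted as the same as in the main setting, 20 moved and 16 reversed. Counts had to stay within a fixed factor of the main count. Fold changes, shares and r had only to keep their sign and their side of 0.05 in p, adjusted for fold changes and r. Their size had no limit, so 0.079 and 0.27 for Serpina1b counted as the same. No Serpina gene passed an adjusted p of 0.05 between the groups in any of 20 alternatives; at an unadjusted p of 0.05 there was 1 gene under quantile normalization (Serpina1b), without Con 1 and without Exe 4 (Serpina3m) and without Exe 5 (Serpina1d). Over all genes, 1 passed an adjusted p of 0.05 with no filter. The count at an unadjusted p of 0.05 was 371 with the stricter filter, and 418 (without Exe 2) to 910 (without Exe 5) with 1 mouse left out. Of these calls 68.7% were higher in Exe, against 56.4% of 617 under quantile normalization, 56.3% of 629 under median-of-ratios scaling and 88% of 777 with FPKM scaled to 1 fixed sum per mouse.

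The log2 fold change of Serpina6 reversed under quantile normalization (-0.056) and median-of-ratios scaling (-0.0051), and ran from -0.14 to 0.15 with 1 mouse left out; that of Serpina3n ran from -0.25 to 0.13 and that of Serpina10 from -0.068 to 0.22. The share difference of Serpina1a ran from -0.12 to 0.20 points, and r of Serpina1e with the acute-phase level from -0.10 (without Exe 2) to 0.29. The causes were not tested. For Serpina3n that r stayed between 0.925 and 0.962, with adjusted p of 0.0102 to 0.0438, over 17 alternatives, while the number of all genes passing ran from 7 to 54.

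Replicate numbers did not pair the mice: deviations of same-numbered mice had r from -0.478 to 0.165. With the replicate block 567 genes had an unadjusted p under 0.05, 0 an adjusted one, and no Serpina gene was called. With 6 mice a group the intervals of Serpina3n, Serpina6 and Serpina10 are the widest, and changes within them were not detectable. The number of permutations sets the smallest adjusted p over all genes. Levels near 0 are limited by the 2 decimals of the files.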
